A study of Mus musculus with 12 samples.

Results

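Hemoglobin and red cell genes were followed through the perihematomal tissue of young and aged mice 24 h after intracerebral hemorrhage (ICH). The set held Hba-a1, Hba-a2, Hbb-bs, Hbb-bt and Alas2, chosen by symbol, and these were 5 of the 54833 genes in the table. All 5 had enough counts to be tested among 21495 genes. In short, the hemoglobin transcripts were 4.56- to 6.75-fold higher in young ICH than in young sham tissue, and lay between these levels in aged sham tissue. They showed no rise past the test's threshold from aged sham to aged ICH in the main fit of all 12 libraries. Hba-a2 passed it under some alternative settings. Alas2 was set apart by 1 aged ICH library.

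Hemoglobin is made of paired alpha and beta chains, each holding a heme group. Hba-a1 and Hba-a2 encode the adult alpha chain, Hbb-bs and Hbb-bt encode the adult beta chain, and Alas2 encodes the red cell form of the enzyme that starts heme synthesis. In brain tissue these transcripts are mainly known as marks of blood, since young red cells (reticulocytes) still carry RNA, although low hemoglobin expression in neurons and glia has also been described.

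The tissue was the caudate putamen around the hematoma of male wild-type C57BL/6 mice, taken on the operated side. ICH was made by injecting collagenase, an enzyme that breaks down the vessel wall, and sham mice had the same surgery with sterile saline. Ages were 8 to 10 weeks in the young and 20 to 22 months in the aged animals, and each age and surgery was sequenced as 3 libraries, 12 in all. Mice were perfused through the heart with cold saline buffer before the brain was removed, and each library came from tissue pooled from more than 1 mouse. The blood left in a vessel and the blood of the hematoma were not separated by any label, and in bulk tissue fewer cells of a type and less RNA per cell cannot be told apart.

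The 12 libraries held 28410896 to 37785160 counts. Some libraries stood apart in the tissue they held. The choroid plexus gene Ttr was at 1423, 1810 and 3651 CPM (counts scaled to library size) in aged ICH 1, aged ICH 2 and young ICH 3, and at 5.26 to 420 CPM in the other 9 libraries. The striatal receptor gene Drd1 was lowest in aged ICH 1 (14.1 CPM) and young ICH 2 (18.2 CPM) and at 37.3 to 128 CPM in the others. The part of dissection in the hemoglobin levels was not tested.

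The 4 hemoglobin genes came in pairs of near-identical copies, which bears on how far each row of the table can be read alone. Hba-a1 (ENSMUSG00000069919) lies at chr11:32283511-32284465 and Hba-a2 (ENSMUSG00000069917) at chr11:32296489-32297298, both on the plus strand. Hbb-bs (ENSMUSG00000052305) lies at chr7:103826534-103828096 and Hbb-bt (ENSMUSG00000073940) at chr7:103812524-103813996, both on the minus strand. Positions are those of the GENCODE annotation of GRCm38, the build the authors used. The coding sequences of the alpha pair, 429 bases with the stop codon, differed at 1 base, C381T, counted from the first base of the start codon and given as the base of Hba-a1, the position and the base of Hba-a2. The coding sequences of the beta pair, 444 bases, also differed at 1 base, C417T from Hbb-bs to Hbb-bt. The stretches around these bases are shown because they are the only coding positions that separate the copies, with the differing base in capitals.
Hba-a1: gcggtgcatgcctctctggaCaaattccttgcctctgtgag
Hba-a2: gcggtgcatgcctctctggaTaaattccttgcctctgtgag
Hbb-bs: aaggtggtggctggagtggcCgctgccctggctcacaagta
Hbb-bt: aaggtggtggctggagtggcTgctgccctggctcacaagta
The longest run shared by the annotated main transcripts was 415 bases for the alpha pair and 430 bases for the beta pair. A read inside such a run could belong to either copy, and how the counting treated it was not given in the sources used here. Levels of single copies are therefore uncertain, and the copies were also added and tested as 1 feature each. Adding the copies would not recover shared reads if the counting left them out. The sums, shares and ratios of hemoglobin counts given below carry that limit too.

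The copies were very unequal in the table. Hba-a1 had 4.34 to 39.0 times the counts of Hba-a2 in the 12 libraries, and Hbb-bs had 4.65 to 15.0 times those of Hbb-bt. The ratio of Hba-a1 to Hba-a2 was 4.34, 5.03 and 7.95 in aged ICH, below its 9.07 to 13.3 in aged sham. It was 7.25 to 24.9 in young ICH and 7.83 to 39.0 in young sham, where the highest ratio rested on 2 Hba-a2 counts. By FPKM (fragments scaled to transcript length and library size, which allows genes of different length to be compared), the beta pair stood at 1.51 to 3.19 times the alpha pair. This ratio was 2.29 ± 0.218 (SD, n = 3) in aged ICH, 2.26 ± 0.310 in aged sham, 2.65 ± 0.491 in young ICH and 2.03 ± 0.463 in young sham, so the balance of the chains moved far less than their level.

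Alas2 (ENSMUSG00000025270) lies at chrX:150547375-150570638 on the plus strand. It is overlapped there by Apex2, a DNA repair gene, and by the microRNA gene Mir3620, both on the other strand. Whether the counting used strand was not given in the sources used here. Apex2 stayed between 4.73 and 6.33 CPM in the 12 libraries, while Alas2 ranged from 0.387 to 24.6 CPM.

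The promoters of the 4 hemoglobin genes shared short motifs, and these are shown because the levels of the genes were correlated over the 12 libraries. In the 250 bases before the RefSeq start (GRCm38.p6), the TATA-like letters ATATAA stood 28 to 31 bases before the start in each of the 4 genes. These letters or their reverse TTATAT were in 9.10% of all 32851 such windows. The RefSeq start is not always the GENCODE start, and the stretches of Hba-a1, Hbb-bs and Hbb-bt fall within the GENCODE positions given above. The stretches below carry the motif in capitals.
Hba-a1, chr11:32283632-32283661, plus strand: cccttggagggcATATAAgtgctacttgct
Hba-a2, chr11:32296449-32296478, plus strand: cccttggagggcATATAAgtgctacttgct
Hbb-bs, chr7:103827941-103827970, minus strand: ccagggcagagcATATAAggtgaggtagga
Hbb-bt, chr7:103813935-103813964, minus strand: ccagcattgggtATATAAagctgagcaggg
The windows of Hba-a1 and Hba-a2 shared a run of 247 of their 250 bases, so the alpha pair counts as 1 sequence here. Those of Hbb-bs and Hbb-bt shared no run longer than 14 bases. Alas2 held no ATATAA. The core of the motif bound by GATA factors, GATAA, was found on one strand or the other in the windows of all 5 genes and in 22.6% of all windows. In Alas2 it lay 86 bases before the start on the opposite strand, as the capitals in this stretch show.
Alas2, chrX:150547318-150547347, plus strand: actactttgctttTTATCtttagcagaggc
CACCC, searched with GGGTG, was also in all 5 windows, against 52.0% of all windows. CCAAT, searched with ATTGG, was in the windows of the 4 hemoglobin genes, against 33.8%. A match is a run of letters only and was not read as a bound site.

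Hbb-bs, the main beta chain row, was the most abundant of the 5 by FPKM in every group. Its level was 2.90, 12.6 and 3.07 CPM in young sham 1, 2 and 3, and 19.2, 75.6 and 30.5 CPM in young ICH 1, 2 and 3. It was 23.8, 14.3 and 21.6 CPM in aged sham and 18.1, 14.4 and 34.4 CPM in aged ICH. The young sham libraries lay below all others, young ICH 2 lay far above all others, and the aged sham and aged ICH libraries overlapped. By mean level the order was young sham (6.20 ± 5.57 CPM, SD, n = 3), aged sham (19.9 ± 4.96), aged ICH (22.3 ± 10.7) and young ICH (41.7 ± 29.9). In that order, aged sham and aged ICH were not told apart by the test below, nor were aged ICH and young ICH. In FPKM, young ICH reached 55.2 ± 38.8, a group mean above those of 98.2% of the 34524 genes with any FPKM there, and young sham was at 7.71 ± 6.89, above 82.4% of 34049 genes.

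Hba-a1, the main alpha chain row, followed Hbb-bs. It stood at 1.30, 6.25 and 2.57 CPM in young sham, 6.01, 33.2 and 13.9 CPM in young ICH, 10.7, 8.26 and 9.58 CPM in aged sham, and 7.75, 5.79 and 15.0 CPM in aged ICH. Young ICH 1 lay just under young sham 2, so the young groups overlapped by that pair of libraries. The aged sham libraries lay above all 3 young sham libraries.

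The second copies were low. Hba-a2 had 0.166, 0.476 and 0.0660 CPM in young sham, 0.667, 1.33 and 1.92 CPM in young ICH, 0.894, 0.910 and 0.719 CPM in aged sham, and 1.78, 1.15 and 1.89 CPM in aged ICH. Unlike the other hemoglobin genes, its aged ICH libraries lay above its aged sham libraries without overlap. These values rested on 2 to 15 counts per young sham library and on 23 to 64 counts elsewhere.

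Hbb-bt, the minor beta copy, was at 0.442, 1.49 and 0.660 CPM in young sham, 1.28, 7.19 and 3.37 CPM in young ICH, 2.02, 2.53 and 3.17 CPM in aged sham, and 1.25, 1.08 and 6.06 CPM in aged ICH. Young ICH 2 and aged ICH 3 were its highest libraries. Its other aged ICH libraries lay below every aged sham library.

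**Figure D1:**
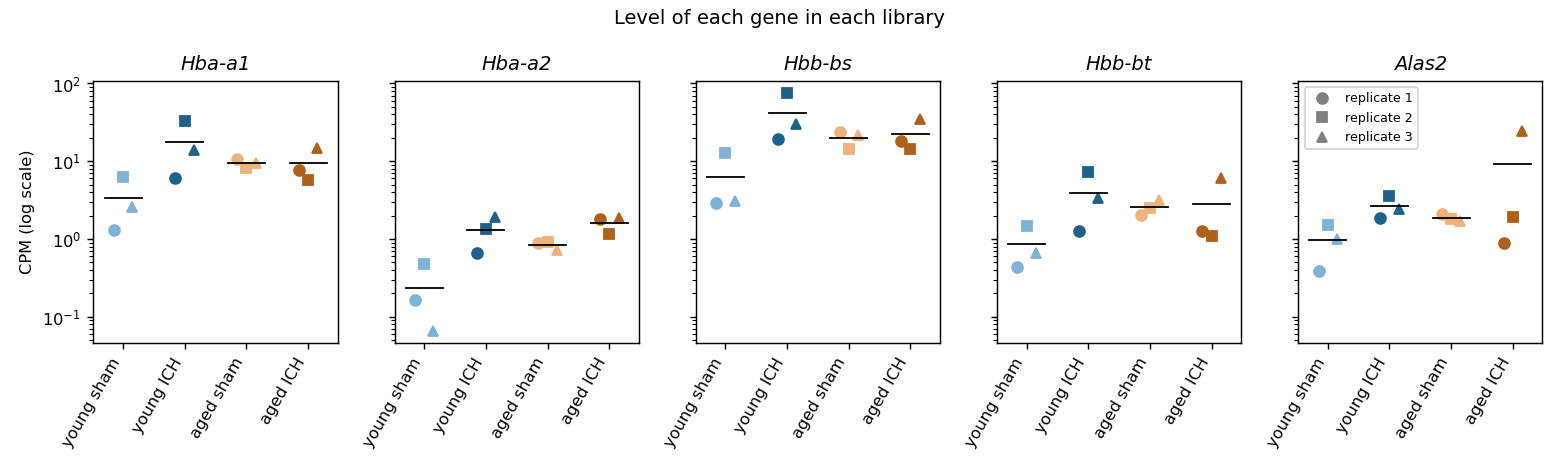
CPM on a log axis for each of the 5 genes in the 12 libraries, by group, with markers for replicates 1 to 3 and a line at the group mean. The young sham libraries are lowest for Hbb-bs (2.90 to 12.6 CPM), young ICH 2 is highest for Hbb-bs (75.6 CPM), and aged ICH 3 is alone at 24.6 CPM for Alas2.

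The comparison of young ICH with young sham asked what hemorrhage adds in young tissue. A gene was called when its fold change was above 1.5 or below 0.67 with an unadjusted P below 0.05 in edgeR's quasi-likelihood test, the thresholds of the study, and the Benjamini-Hochberg adjusted P over all 21495 genes is given beside it. The 4 hemoglobin genes rose and Alas2 did not pass, so that 4 of 5 were called higher, against 8.66% of all genes. Hbb-bs was 6.75-fold higher (log2 difference 2.75 ± 0.63 SE, edgeR adjusted P = 0.0123). Hba-a2 was 5.46-fold (2.45 ± 0.53, edgeR adjusted P = 0.00965) and Hba-a1 5.26-fold higher (2.39 ± 0.64, edgeR adjusted P = 0.0239). Hbb-bt was 4.56-fold higher (2.19 ± 0.76, edgeR adjusted P = 0.0649) and passed by its unadjusted P alone, so 3 of 5 held at an adjusted P below 0.05, against 9.89% of all genes. The median log2 difference of the 5 genes was 2.39 and that of all genes 0.02. The levels of Hba-a2, Hbb-bs and Alas2, 3 of 5, did not overlap between young ICH and young sham in CPM, as for 18.5% of all genes.

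Alas2 was at 0.387, 1.52 and 0.990 CPM in young sham and at 1.89, 3.56 and 2.46 CPM in young ICH. Its difference of 1.45 ± 1.01 missed the threshold (edgeR adjusted P = 0.343, 95% interval 0.596- to 12.6-fold) in the fit of all 12 libraries. The fit shares 1 estimate of spread per gene, and without aged ICH 3 the same difference of 1.45 passed (edgeR adjusted P = 0.0453).

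The size of the young response rested partly on 2 libraries. Without young ICH 2 the log2 difference of Hbb-bs was 2.01, that of Hba-a1 1.57 and that of Hbb-bt 1.44 (edgeR adjusted P = 0.214, no longer called). Without young sham 2, the highest of its group, those of Hbb-bs, Hba-a1 and Hba-a2 were 3.80, 3.20 and 3.41. Hbb-bt also missed the threshold without young sham 1 (1.86, edgeR adjusted P = 0.171).

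In aged mice the hemoglobin genes did not pass the test between ICH and sham in the main fit of all 12 libraries. The fold was 1.12 for Hbb-bs (log2 difference 0.17 ± 0.59, edgeR adjusted P = 0.884, 95% interval 0.462- to 2.73-fold) and 1.09 for Hbb-bt (95% interval 0.374- to 3.15-fold). Hba-a1 had the same mean in both groups, 9.51 CPM, with a 95% interval of 0.402- to 2.49-fold. The young estimate for Hbb-bs, 6.75-fold, lay outside the aged interval of that gene. Its own 95% interval, 2.59- to 17.6-fold, overlapped the aged one. A 2-fold change in either direction lay inside the aged interval. Hba-a2 was 1.91-fold higher (0.94 ± 0.45, edgeR adjusted P = 0.198, not called), and its levels were the only ones of the 5, 1 of 5, that did not overlap, as for 17.8% of all genes. Hba-a2 was near the threshold and was called under 8 alternatives (log2 differences 0.94 to 1.12, edgeR adjusted P = 0.0517 to 0.218), which were total counts only, no low-count filter, the aged groups alone, and the fits without young sham 2, young sham 3, young ICH 1, young ICH 3 or aged ICH 2.

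Alas2 was the single member called, 1 of 5 against 7.24% of all genes, and the call came from 1 library. Its levels were 2.12, 1.82 and 1.71 CPM in aged sham and 0.892, 1.90 and 24.6 CPM in aged ICH. The log2 difference of 2.28 ± 0.95 (edgeR adjusted P = 0.136) became -0.44 (edgeR adjusted P = 0.627) without aged ICH 3. The call was also lost without aged sham 1, 2 or 3 in turn (2.37, 2.25 and 2.21, edgeR adjusted P = 0.260, 0.269 and 0.253), and in the fit of the aged groups alone (2.28, edgeR adjusted P = 0.213).

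**Figure D2:**
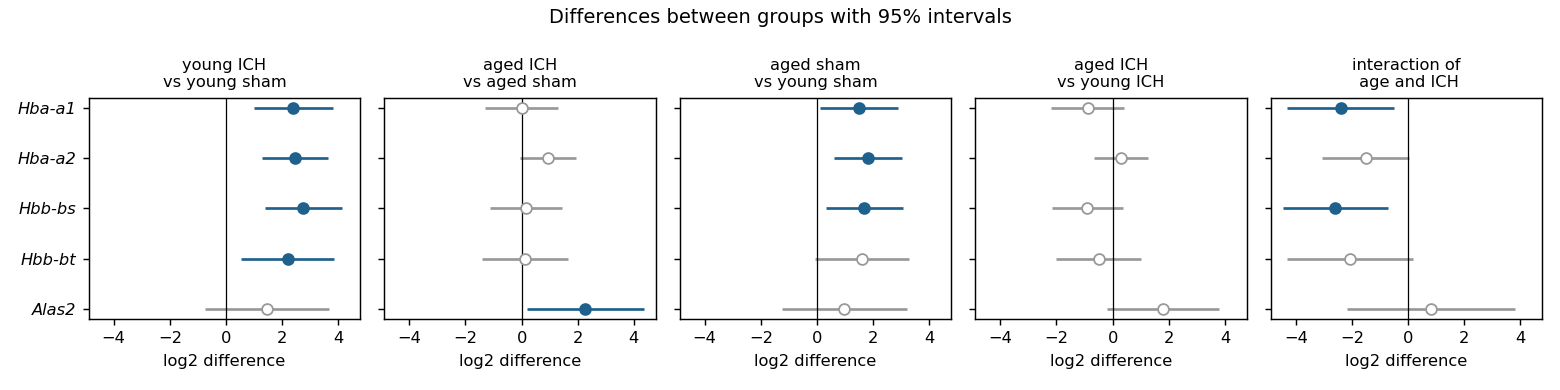
Log2 difference (point) with its 95% interval (bar) for each gene in the 5 comparisons of edgeR's quasi-likelihood test, with filled blue points for called genes and open grey points for the others. The 4 hemoglobin genes lie at 2.19 to 2.75 in young mice, and their intervals include 0 in aged mice.

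The sham groups were then compared, to set the ages side by side in tissue that had no collagenase. All 5 genes were higher in each aged sham library than in every young sham library, 5 of 5 against 9.81% of all genes. With the test, Hba-a2 (3.53-fold, log2 difference 1.82 ± 0.55), Hbb-bs (3.22-fold, 1.69 ± 0.62) and Hba-a1 (2.83-fold, 1.5 ± 0.63) were called by the unadjusted P, 3 of 5 against 2.82% of all genes. Hbb-bt stood at 1.58 ± 0.76 and Alas2 at 0.97 ± 1.02, neither called. None of the 5 passed after adjustment, with edgeR adjusted P of 0.242 for Hba-a2, 0.314 for Hbb-bs, 0.367 for Hba-a1, 0.428 for Hbb-bt and 0.744 for Alas2. The calls of Hba-a1 and Hbb-bs were lost without young sham 1 (log2 differences 1.11 and 1.34, edgeR adjusted P = 0.509 and 0.439), without young sham 3 (1.35 and 1.37, edgeR adjusted P = 0.659 and 0.628) or without aged sham 1 (1.41 and 1.54, edgeR adjusted P = 0.487 and 0.438), and that of Hba-a1 also without aged sham 3 (1.5, edgeR adjusted P = 0.643). Without young sham 2 the differences of Hba-a1, Hba-a2 and Hbb-bs grew to 2.31, 2.77 and 2.73.

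Summed over the 4 genes, hemoglobin took 0.000460% to 0.00199% of the counts in young sham libraries and 0.00255% to 0.00365% in aged sham libraries. Young ICH libraries held 0.00275% to 0.0118% and aged ICH libraries 0.00233% to 0.00592%. The Wilson 95% interval of the highest young sham library, 0.00184% to 0.00214%, did not reach that of the lowest aged sham library, 0.00238% to 0.00274%, where the intervals cover counting error only. Aged ICH 1 and aged ICH 2 held less hemoglobin by share than aged sham 1 and aged sham 3.

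Between the ICH groups none of the 5 was called, against 3.52% of all genes called in either direction. Hbb-bs was at 0.535 of its young ICH level in aged ICH (log2 difference -0.90 ± 0.58, edgeR adjusted P = 0.658, 95% interval 0.221 to 1.29). Hba-a1 was at 0.539 of that level (-0.89 ± 0.60, edgeR adjusted P = 0.667). Without young ICH 2 these differences shrank to -0.15 for Hbb-bs and -0.0675 for Hba-a1, and without aged ICH 3 they were -1.36 and -1.38, with neither gene called. Alas2 was 3.47-fold higher (1.79 ± 0.92, edgeR adjusted P = 0.574) and, without aged ICH 3, at -0.93 on the log2 scale. Without aged ICH 3, Hbb-bt was called lower in aged ICH (-1.74, edgeR adjusted P = 0.659), and without young ICH 1, Hba-a1 was (-1.31, edgeR adjusted P = 0.777). Alas2 was called higher in aged ICH without aged ICH 1 (2.33, edgeR adjusted P = 0.574) and without aged ICH 2 (2.27, edgeR adjusted P = 0.388).

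The difference between the responses was tested itself, as the change from sham to ICH in aged mice minus that in young mice. It was -2.59 ± 0.85 on the log2 scale for Hbb-bs and -2.40 ± 0.87 for Hba-a1, and by the unadjusted P of edgeR 2 of 5 were called lower, against 1.08% of all genes. Hbb-bt (-2.07 ± 1.03) and Hba-a2 (-1.51 ± 0.70) had the same sign without passing. Alas2 was at 0.82 ± 1.37, and at -1.90 and called without aged ICH 3. The edgeR adjusted P of all 5 was 0.9999, and no gene of the 21495 passed an adjusted P of 0.05 in this comparison, where 606 had an unadjusted P below 0.05. The call of Hba-a1 was lost without young ICH 2 (-1.57, edgeR adjusted P = 0.862), while that of Hbb-bs was kept in each of the 12 fits that left out 1 library, at -1.84 to -3.64. With the copies added, the alpha pair was at -2.30 and the beta pair at -2.54, both called by the unadjusted P.

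**Figure D3:**
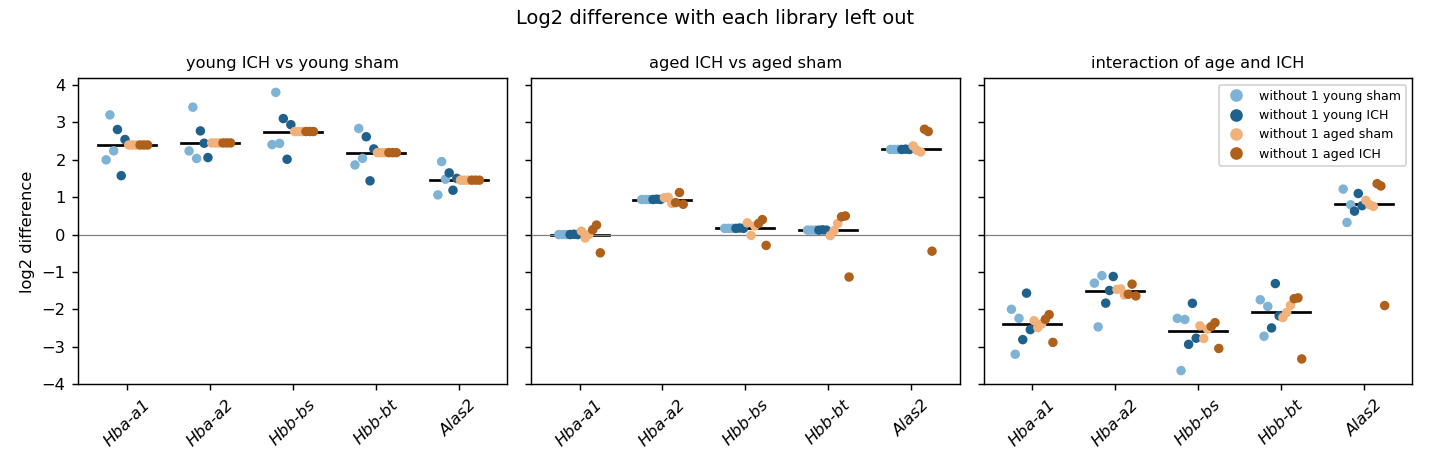
Log2 difference of each gene with 1 library left out at a time (points, coloured by the group of the library left out) and with all 12 libraries (black line), for ICH against sham in young mice, in aged mice, and for the difference of these responses. Alas2 in aged mice goes from 2.28 to -0.44 without aged ICH 3, while all the points of Hbb-bs stay above 2 in young mice.

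Over the libraries, the levels of the hemoglobin genes were correlated, least so for Hba-a2. The permutations here and below mixed libraries of different groups, so r and P also carry differences between group means. After each group's mean was subtracted, r with Hbb-bs was 0.943 for Hba-a1, 0.850 for Hbb-bt and 0.706 for Hba-a2. Over the 12 libraries, the log2 CPM of Hba-a1 had a Pearson r of 0.971 with that of Hbb-bs (Spearman rho 0.909, permutation P = 1e-05, the smallest that 100000 permutations can give, adjusted P = 1e-04 over 10 relations). Hbb-bt had r = 0.899 (rho 0.853, permutation P = 6e-05, adjusted P = 3e-04) and Hba-a2 r = 0.862 (rho 0.734, permutation P = 0.00105, adjusted P = 0.00350). Within the 6 sham libraries these 3 genes had r of 0.968, 0.946 and 0.943 with Hbb-bs. Within the 6 ICH libraries r was 0.983 for Hba-a1 and 0.928 for Hbb-bt, but 0.276 for Hba-a2 (rho 0.371, exact permutation P = 0.567, adjusted P = 0.708). Without young sham 1 and young sham 3, the 2 libraries farthest from the median of Hbb-bs, r was 0.959 for Hba-a1, 0.836 for Hbb-bt and 0.504 for Hba-a2, so that the relation of Hba-a2 rested on those libraries. Copies of a pair can share reads, so the pair Hbb-bs and Hbb-bt is not independent, whereas Hba-a1 and Hbb-bs lie on different chromosomes.

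Alas2 had r = 0.677 with Hbb-bs over 12 libraries (rho 0.853, permutation P = 0.0182, adjusted P = 0.0304). It was 0.882 in the 6 sham libraries (rho 0.943, exact permutation P = 0.00556, adjusted P = 0.0278). Within the 6 ICH libraries r was 0.466 (rho 0.771). Without the 2 farthest libraries r was 0.521 and did not pass, while rho was 0.794 and passed (permutation adjusted P = 0.0451). By ratio, Alas2 had 3.04 to 15.5 counts per 100 hemoglobin counts in 11 libraries and 42.9 in aged ICH 3. In that library 783 Alas2 counts stood beside 1826 hemoglobin counts, and its Hbb-bs level of 34.4 CPM was second only to young ICH 2.

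The rest of the red cell program was near its floor. Among 8 other red cell markers, Epb42 had 0 to 4 counts per library, Rhag 0 to 1 and Gata1 0 to 2. Slc4a1, the anion exchanger of the red cell membrane, had 0 to 16 counts in 11 libraries and 32 in aged ICH 3, and Klf1, an erythroid transcription factor, had 0 to 7 and then 13. Nfe2, a factor of the red cell and platelet lines, likewise had 1 to 15 counts in 11 libraries and 32 in aged ICH 3. Ermap had 11 to 43 counts per library. The sum of the 8 markers was 0.429 to 1.36 CPM in young sham, 0.865 to 0.914 in young ICH, 1.36 to 2.02 in aged sham and 0.892 to 2.23 in aged ICH, so it did not follow hemoglobin in young ICH.

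Fixed lists of related genes were set beside the calls over all genes. Of all 21495 genes, 8.66% were called higher in young and 7.24% in aged mice, and 751 and 607 were called lower. Of 13 heme synthesis genes tested, Alas2 included, none was called in young mice and only Alas2 in aged mice, with list medians of 0.05 and 0.03 beside 0.02 and 0.00 for all genes. Alas1, the form of the enzyme used by other tissues, was at 49.2, 49.1 and 43.5 CPM in young ICH against 53.1, 55.8 and 55.0 CPM in young sham, a log2 difference of -0.21 ± 0.06 (edgeR adjusted P = 0.0361) that did not reach the fold threshold. Of 20 red cell membrane genes 12 were tested, with median log2 differences of -0.28 in young and -0.33 in aged mice. Only 4 of the 12 in young mice and 3 in aged mice had a positive difference. Slc2a1 was called higher in young mice. In aged mice Aqp1, also a choroid plexus gene, was called higher and Ermap and Tmod1 lower. Of 10 erythroid transcription factors and receptors tested, Tal1 was called higher in young mice (0.71 ± 0.22, edgeR adjusted P = 0.0409) and none in aged mice. Of 14 red cell enzyme and reticulocyte genes tested, 1 was called higher (Tent5c) and 1 lower in young mice, and 2 higher (Ube2l6 and Isg20, both interferon-responsive) and 0 lower in aged mice. Most of these list members are also expressed in brain.

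Among the other globins, the embryonic genes Hba-x, Hbb-y and Hbb-bh1 had 0 to 2 counts. Hbq1a, a theta globin of unknown function, was at 0.221, 0.222 and 0.396 CPM in young sham and at 0.794, 0.472 and 0.749 CPM in aged sham, 2.41-fold higher (1.27 ± 0.46, called, edgeR adjusted P = 0.303). It was not called after ICH in either age. Ngb (neuroglobin) at 1.16 to 3.15 CPM and Cygb (cytoglobin) at 32.4 to 48.7 CPM were not called in any of the 5 comparisons. Mb (myoglobin) was lower in aged than in young ICH (-0.92 ± 0.36, called, edgeR adjusted P = 0.457).

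Markers of other blood and vessel cells were set beside hemoglobin. The mean log2 CPM of 9 tested platelet genes had r = 0.754 with Hbb-bs over 12 libraries (rho 0.755, permutation P = 0.00270, adjusted P = 0.00675), 0.796 within sham, 0.338 within ICH and 0.518 without the 2 farthest libraries. For neutrophil genes r was 0.688 (rho 0.601, permutation P = 0.00967, adjusted P = 0.0193), 0.736 within sham, -0.186 within ICH and 0.364 without those libraries. Both relations thus rested on those libraries. Monocyte (r = 0.584, rho 0.608, adjusted P = 0.0653), endothelial (0.547, 0.580, adjusted P = 0.0810), B cell (0.0481, 0.161, adjusted P = 0.890) and choroid plexus genes (-0.193, -0.294, adjusted P = 0.615) did not pass over 12 libraries in the permutation test. Neutrophil genes were called higher after ICH in both ages, 8 of 10 tested in each, against 8.66% of all genes in young and 7.24% in aged mice. Of the 9 platelet genes tested, 4 were called higher and 1 lower in each age. The lower one was P2ry12, also a microglial gene, at -0.70 ± 0.14 in young and -0.85 ± 0.14 in aged mice (edgeR adjusted P = 0.00592 and 0.00536). Among the higher ones was Pf4 at 1.79 ± 0.24 in young and 1.56 ± 0.23 in aged mice (edgeR adjusted P = 0.00165 and 0.00441). The aged hemoglobin rows did not pass that test, and the difference between these genes' responses was not tested.

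Hmox1, the heme-degrading enzyme induced by heme, was called higher after ICH in both ages. It was at 7.32, 16.2 and 14.9 CPM in young sham and 146, 173 and 219 CPM in young ICH (14.1-fold, edgeR adjusted P = 0.00403), and at 39.6, 6.51 and 84.8 CPM in aged sham and 264, 159 and 273 CPM in aged ICH (5.30-fold, edgeR adjusted P = 0.0285). Its ICH and sham libraries did not overlap, unlike those of Hbb-bs in aged mice. Aged sham 2 had the lowest Hmox1 of all 12 libraries, with Hbb-bs at 14.3 CPM, above every young sham library. Aged ICH 2 had almost the same Hbb-bs level, 14.4 CPM, with Hmox1 at 159 CPM.

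**Figure D4:**
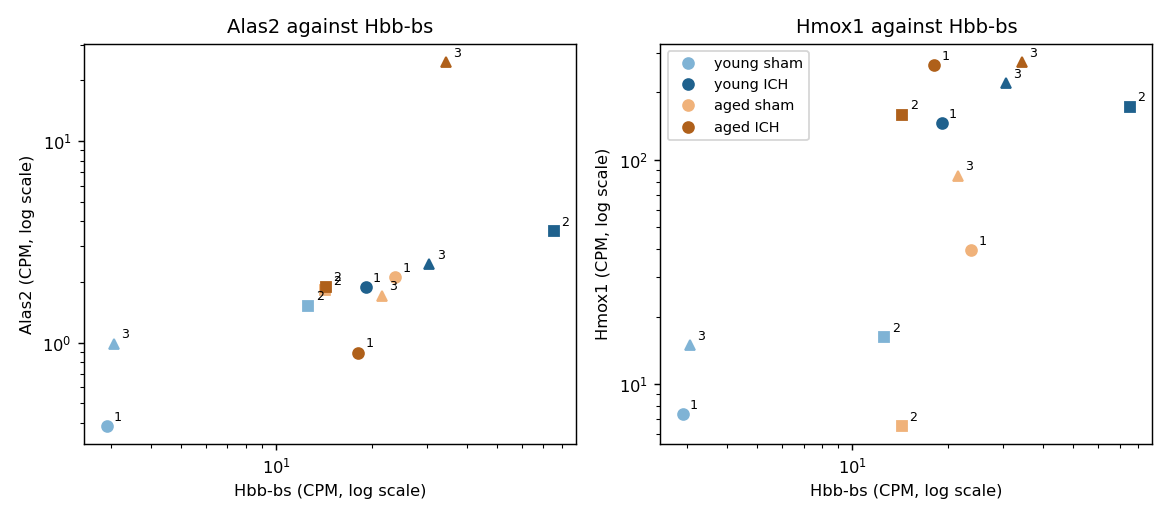
Alas2 (left) and Hmox1 (right) against Hbb-bs in the 12 libraries, in CPM on log axes, coloured by group and numbered by replicate. Alas2 lies between 0.387 and 3.56 CPM in 11 libraries with aged ICH 3 apart at 24.6 CPM, and Hmox1 splits ICH (146 to 273 CPM) from sham (6.51 to 84.8 CPM) at overlapping Hbb-bs levels.

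The genes whose pattern was most like that of Hbb-bs were sought among the other 21494 tested genes by Pearson r of log2 CPM over the 12 libraries. Hba-a1 and Hbb-bt ranked 1 and 2, Hba-a2 ranked 8 and Alas2 545. The 10 other genes with the highest r were Gm17111, Mtrr, Gm11725, Gm35315, 5430400D12Rik, 9430065F17Rik, Rdh16, Acad10, 1700012D14Rik and Orc1, at 0.850 to 0.891. After each group's mean was subtracted, Hba-a1 ranked 3 (r = 0.943), Hbb-bt 81, Hba-a2 683 and Alas2 1712. The leading 10 others, at 0.921 to 0.949, then included Ccdc73, Rnf111, Chrdl1, BC046401, Mbd5, Gm16333, Zfp738, Unc13b and Sel1l. The 2 lists of 10 shared no gene. With 12 libraries and this many genes such values are a description of likeness only.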

How the data were processed

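Gene counts were deposited by the authors in 1 table of 54833 genes, with FPKM values deposited beside them in the same table. Per the submitters' processing notes, reads were aligned with HISAT2 to GRCm38.p6 and counted with featureCounts. The treatment of reads that fit several copies and the strand setting were not given in the sources used here. All 24 sample columns were assigned by name, 3 libraries per group. Raw counts were tested with edgeR 4.0.16 (R 4.3.3), with TMM normalization, filterByExpr at a minimum count of 10 and 1 quasi-likelihood fit of all 12 libraries, which was tested on simulated data. CPM uses TMM library sizes, and log2 CPM a prior count of 2. Libraries are pools of mice, so P-values measure the spread between pools.

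The genes, related lists and tests were chosen with earlier results of these data known. Genes named beyond the 5 belong to the fixed lists, to the globin family, or to the 10 most like Hbb-bs by each of 2 measures. Some genes of these lists are not reported here. Apex2 and the marker levels by library were chosen after their values were seen. Alternatives were other normalizations, filters, DESeq2 1.42.0, added copies, a replicate block, single comparisons and leaving out each library.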

Additional observations from a re-analysis of the deposited data

Results flagged for a closer look

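The responses of 2 genes to ICH passed the unadjusted threshold, but not the adjusted one, in a test of the difference between young and aged mice. For Hba-a1, the change from sham to ICH in aged mice minus that in young mice was -2.40 on the log2 scale. For Hbb-bs it was -2.59. After adjustment over all genes neither passed (edgeR adjusted P = 0.9999), and 1.08% of all genes were called lower in the same way. Of the 21495 genes, 606 had an unadjusted P below 0.05. The call of Hba-a1 was lost without young ICH 2, at -1.57. The young sham libraries, with 2.90 to 12.6 CPM of Hbb-bs, set the start of the young response, against 14.3 to 23.8 CPM in aged sham. Groups of 3 libraries are too small for a test of single outlying values, so aged ICH 3, with 24.6 CPM of Alas2, was not tested as one.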

How the results depend on the processing

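Of 495 values of single genes under alternative settings, 422 kept their direction and side of the threshold. In young ICH against young sham 3 to 5 of the 5 genes were called in every alternative. For aged ICH against aged sham the count of 1 became 2 with total counts only or without the low-count filter, and 0 with the replicate block or by adjusted P. For the sham groups the count of 3 became 5 when only these groups were fitted and 0 by adjusted P. Between the ICH groups the count of 0 became 1 without the filter (Alas2). For the difference of responses the count of 2 became 4 without the filter or with the copies added, and 0 by adjusted P. Leaving out 1 library gave 3 to 5, 0 to 2, 1 to 4, 0 to 1 and 1 to 4 called genes in these comparisons in turn.

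Replicate numbers did not pair the libraries: the deviations of same-numbered libraries correlated at -0.454 to 0.235. With the replicate block, Alas2 in aged mice was at 1.5 (edgeR adjusted P = 0.359), and Hbb-bt was called between the sham groups (1.67) and for the difference of responses (-2.12).

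Some signs turned, for values near 0 and for larger ones. In aged mice Hba-a1, near 0, was at 0.0696 with total counts only, 0.000938 without the filter, 0.00682 with a minimum count of 50, 0.10 with the copies added and 0.00959 when only the aged groups were fitted. Hbb-bt was at -0.0315 with the block, and Alas2 at -0.0647 for the difference of responses. Hba-a2 with its copy added was at -0.77 between the ICH groups, as the sum is mostly Hba-a1. With 1 library left out, the aged response ranged from -0.49 to 0.25 for Hba-a1, -0.29 to 0.40 for Hbb-bs, -1.14 to 0.50 for Hbb-bt and -0.44 to 2.82 for Alas2. The difference between the ICH groups ranged from -0.0156 to 0.70 for Hba-a2, -1.74 to 0.27 for Hbb-bt -0.93 to 2.33 for Alas2, -1.36 to -0.15 for Hbb-bs and -1.38 to -0.0675 for Hba-a1, and the difference of responses from -1.90 to 1.36 for Alas2.

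Without the 2 libraries farthest from the median of Hbb-bs, an alternative chosen after seeing the data, some relations with Hbb-bs changed. Pearson r no longer passed for Hba-a2 (0.504), Alas2 (0.521), platelet (0.518) and neutrophil genes (0.364), and turned to -0.304 for B cell genes. By rank, Alas2 still passed (rho 0.794, permutation adjusted P = 0.0451), while Hbb-bt did not (rho 0.745, permutation adjusted P = 0.0568). The cause of these changes was not tested. Counts of 2 to 15 for Hba-a2 in young sham libraries limit the precision of its levels there.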
